A study of Rattus norvegicus with 12 samples.

Results

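Firing was silenced with tetrodotoxin (TTX) in cortical neuron cultures in which Ehmt1 had been knocked down, and transcript levels were measured. The comparison sets 3 knockdown libraries with TTX against 3 untreated knockdown libraries, 6 of the 12 libraries in the series, taken by their labels and paired by replicate number. All 6 came from primary cultures of cortical neurons of Wistar rats at embryonic day 18 and carried a short hairpin RNA (shRNA) against Ehmt1. The other 6 libraries, 3 wild-type with TTX and 3 wild-type untreated, came from cultures of the same kind and are used for the spread between pairs and for contrast. The dose and duration of TTX, the vector that carried the hairpin and the share of cells that took it up are not given in the sources used here. The sample titles name no control hairpin, so loss of Ehmt1 and any effect of the hairpin or its delivery cannot be told apart. Both groups of the TTX comparison carried the hairpin.

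TTX blocks voltage-gated sodium channels, which carry the action potential, and so stops spontaneous firing in cultured networks. Firing normally lets calcium into neurons, and calcium-driven kinases switch on a first wave of immediate early genes and then a slower wave of effector genes, many of them secreted peptides. Prolonged silencing is known to trigger homeostatic scaling, in which neurons strengthen their synapses. EHMT1 is a methyltransferase that, together with its partner EHMT2, places the repressive H3K9me2 mark on chromatin, and loss of 1 copy of the human gene causes Kleefstra syndrome, a form of intellectual disability with autistic features.

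RNA depleted of ribosomal RNA was sequenced, and the deposited values are base coverage summed over each transcript and scaled by the authors. Levels are given here as read equivalents, the coverage that 1 read of 42 bases adds. The 6 knockdown libraries held 17807192 to 24787516 read equivalents before scaling. Of 17339 gene symbols, 11813 reached 10 read equivalents in at least 3 of the 6 knockdown libraries and were tested. Libraries of the same number deviated together, with correlations of their deviations from the group mean of 0.82, 0.71 and 0.79, and they are called pair 1, 2 and 3. Whether the libraries of a pair shared a culture is not stated by the labels, and a common culture, lane or batch cannot be told apart. The neuron label was checked against markers. All 15 pan-neuronal markers were above the limit for testing, as were 16 of 17 astrocyte markers and 13 of 14 oligodendrocyte markers, so RNA of glia was measured along with that of neurons. Of 14 microglia markers 11 were under 10 read equivalents in all 6 libraries, and C1qa, C1qb and C1qc were at 0. Of 14 vascular and fibroblast markers 7 were under 10 in all 6, with Cdh5 at 0.

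The target of the hairpin was measured first, on the table that holds all 12 libraries on 1 scale. Ehmt1 (NM_001108572) had 1187, 1519 and 1162 read equivalents in knockdown TTX libraries and 1044, 1535 and 1037 in knockdown untreated libraries. Wild-type libraries had 2039, 1739 and 1839 with TTX and 1772, 1586 and 1599 untreated. The knockdown mean was 68.9% of wild-type with TTX, 1289 ± 199 against 1872 ± 153 (SD, n = 3 each). Untreated it was 72.9%, 1205 ± 286 against 1653 ± 104 (SD, n = 3 each). All 6 knockdown libraries lay below the lowest wild-type library, and pair 2 kept the most Ehmt1 in both of its libraries. Within the knockdown, TTX against untreated gave Ehmt1 a log2 change of 0.11 (SE 0.07, limma adjusted p = 0.456). Ehmt2 (NM_212463), the partner enzyme, had 0.09 (SE 0.10, adjusted p = 0.664). Neither passed the test.

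More genes were called lower than higher with TTX in the knockdown. At a limma adjusted p under 0.05, 130 of the 11813 genes were called, which is 1.1% of all tested, 96 lower (0.813%) and 34 higher (0.288%). The adjusted p of the 130 lay between 0.0061 and 0.0499, and 2198 genes had an unadjusted p under 0.05. Over all genes tested 6230 were higher (52.7%) and 5583 lower (47.3%), and with no filter on low values the calls were 6 higher and 5 lower. All 130 had 1 direction in 3 of 3 pairs (49.9% of all genes tested), and in 83 of them the TTX and untreated libraries did not overlap (8.44% of all genes tested), but the call was made on the same pairs, so nothing is read from these shares. Among the lowered genes the median log2 change was -0.76, and among the raised genes 0.58, while the median over all genes tested was 0.01. Fewer cells of a type and less RNA per cell cannot be told apart in such bulk libraries, here or in any result that follows.

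**Figure D1:**
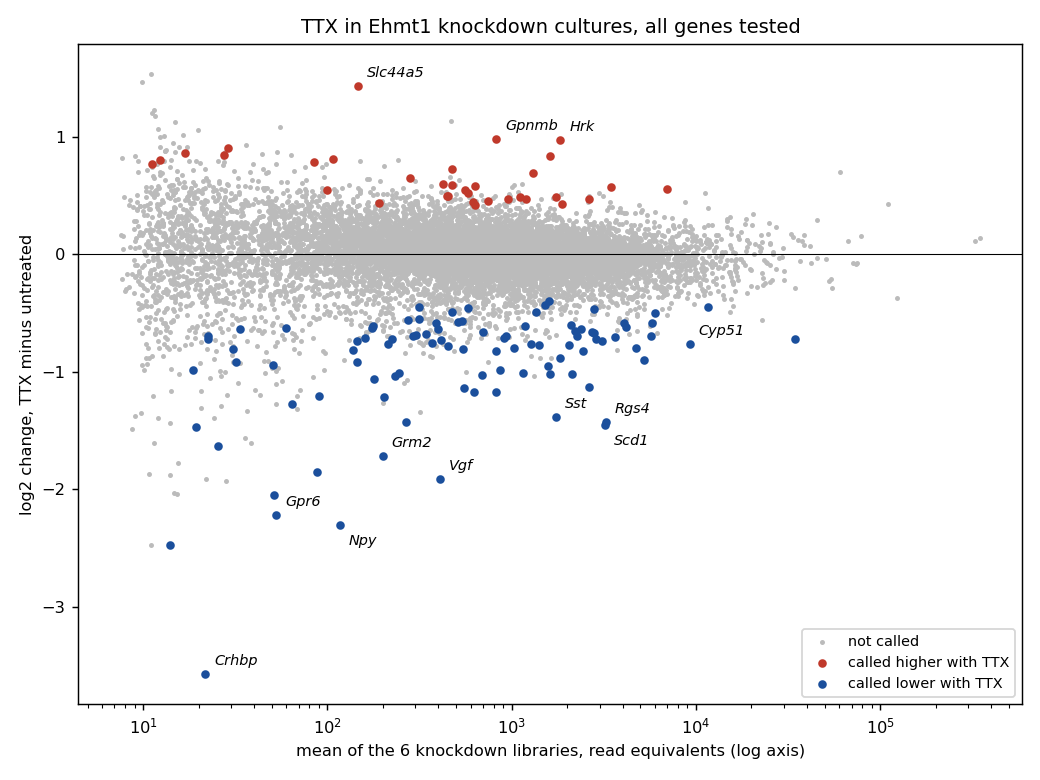
Log2 change with TTX in knockdown cultures (vertical axis) against the mean level of the 6 knockdown libraries in read equivalents (log axis), 1 point for each of the 11813 genes tested. Red points are the 34 genes called higher and blue points the 96 called lower, and the lowered genes reach further from 0 than the raised ones.

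These calls rest on the paired fit and on a spread estimated over both genotypes. With the 6 knockdown libraries alone 3 genes were called, Crhbp, Gpr6 and Scd1, and without the pairing 0 (445 at an unadjusted p under 0.05). Leaving out knockdown pair 1, 2 or 3 left 0, 0 and 1 called. Leaving out wild-type pair 3 left 1, and the 1 gene was Crhbp in both cases. The 130 genes kept their sign whichever knockdown pair was left out. That follows from their 1 direction in all 3 pairs, so nothing is read from it. Pair 2, the pair with the most Ehmt1, had the smallest fall in 74 of the 96 lowered genes, with a median of -0.63 against -0.83 in pair 1 and -0.82 in pair 3. Over all genes tested, too, the log2 changes of pair 2 had the smallest SD, 0.281, against 0.328 in pair 1 and 0.371 in pair 3. The part of Ehmt1 level in that was not tested. With pairs as a random block, 10 of the called genes named in what follows lost the call: Adcyap1, Cryab, Fezf2, Gpnmb, Kcna1, LOC100912071, Prc1, Rps29, Rrm2 and Tk1, with adjusted p between 0.0514 and 0.193.

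The transcripts that fell furthest included several that encode secreted peptides and their vesicle proteins. Of 23 secreted activity effectors and neuropeptides tested, 21 were lower and 2 higher, with a median log2 change of -0.36, and 5 fell: Npy, Vgf, Sst, Scg2 and Adcyap1. That is 21.7% called and 91.3% lower, beside 1.1% and 47.3% of all genes tested. The lists were chosen with earlier results of these data known, so such shares are descriptions, here and for the lists that follow. Npy (NM_012614), which encodes neuropeptide Y, a modulator released by interneurons, had 38.2, 46.7 and 26.9 read equivalents in TTX libraries, against 276, 206 and 109 in untreated libraries. The 3 TTX libraries lay far below the untreated ones, with no overlap. The log2 change was -2.30 (SE 0.27, adjusted p = 0.0335). Vgf (NM_030997), a granin-like precursor of several neuropeptides, had 220.3, 97.5 and 122 with TTX, against 1327, 238 and 456 untreated. Untreated levels differed several-fold among pairs, being highest in pair 1 and lowest in pair 2, and each TTX library was still below all untreated ones. The log2 change of Vgf was -1.92 (SE 0.29, adjusted p = 0.0472).

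Sst (NM_012659), which encodes somatostatin, the peptide of a class of inhibitory interneurons, had 1262, 854 and 803 read equivalents with TTX, against 2796, 2005 and 2743 untreated. All 3 TTX libraries were below the lowest untreated one. Its log2 change was -1.38 (SE 0.22, adjusted p = 0.0477). Scg2 (NM_022669), secretogranin 2 of dense-core vesicles, had 570.1, 415 and 522 with TTX, against 1393, 993 and 1033 untreated, again without overlap, and fell by 1.18 (SE 0.12, adjusted p = 0.0334). Adcyap1 (NM_016989), the precursor of the peptide PACAP, had 328, 256 and 121 with TTX, against 517, 387 and 215 untreated. Here the pairs differed so much in level that the groups overlapped, and the call of -0.69 (SE 0.08, adjusted p = 0.0334) came from the 3 falls within pairs. It was lost with pairs as a random block (adjusted p = 0.116).

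Other peptide and granin genes were lower without passing, such as Vip (-1.10, adjusted p = 0.117), the prohormone convertase Pcsk2 (-0.67, adjusted p = 0.0591) and the chromogranin Chgb (-0.39, adjusted p = 0.0881). Bdnf (NM_001270630), a growth factor gene driven by neuronal activity, had 192, 93.3 and 164 read equivalents with TTX, against 292, 119 and 206 untreated. It was lower within each knockdown pair (-0.60, -0.35 and -0.33), and its log2 change of -0.43 (SE 0.21) did not pass (adjusted p = 0.347). The wild-type pairs, which enter the same estimate of the spread, lay further apart (-0.37, -1.28 and -1.54). From the 6 knockdown libraries alone Bdnf did not pass either (adjusted p = 0.0793). Cck (-0.05), Cpe (0.02), the carboxypeptidase that trims peptides, and Nptx1 (0.04), a neuronal pentraxin, had values near 0.

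Outside that list, secreted factors and receptors were among the largest falls too. Nppc (NM_053750), the precursor of C-type natriuretic peptide, had 34.1, 24.7 and 49.2 with TTX, against 174, 68.2 and 176 untreated, a log2 change of -1.85 (SE 0.20, adjusted p = 0.0334). Gpr6 (NM_031806), a receptor that signals constitutively through cAMP, had 17.1, 16.2 and 20.0 with TTX, against 84.3, 67.1 and 113 untreated. The TTX libraries were tightly grouped and all below the lowest untreated library. It fell by 2.22 (SE 0.32, adjusted p = 0.0452). Crhbp (NM_139183), which encodes the binding protein of corticotropin-releasing factor, was named after its values were seen because its mean is low. It had 3.43, 0.953 and 3.10 read equivalents with TTX, against 62.1, 24.5 and 36.3 untreated, the lowest adjusted p of all genes tested (log2 -3.57, SE 0.18, adjusted p = 0.00608). With so few reads in the TTX libraries, the size of this change depends on the 1 read equivalent added before the log.

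**Figure D2:**
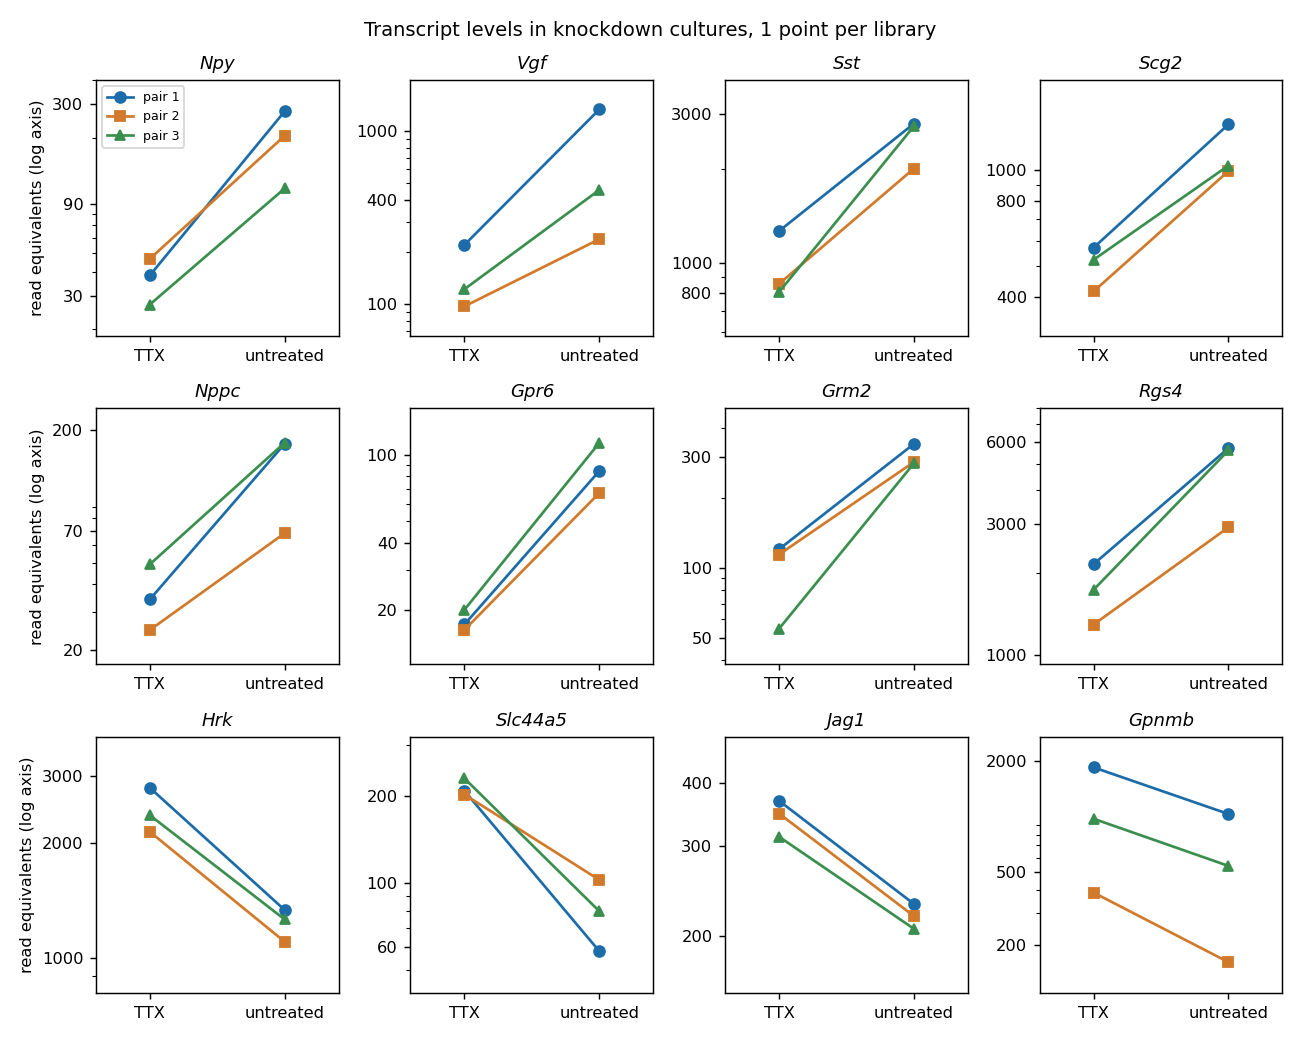
Levels of 12 genes in the knockdown libraries in read equivalents (log axis), TTX on the left and untreated on the right of each panel, with a line joining the 2 libraries of a pair. The upper 8 genes were called lower with TTX and the bottom 4 called higher, and all lines of a panel run the same way.

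The promoters of 4 lowered genes are shown because they carry the full cAMP response element, the palindrome TGACGTCA bound by the activity-driven factor CREB. The sequences are from RefSeq on the GRCr8 build, 250 bases before to 50 bases after the gene start, and capitals mark the element. Of the 96 lowered genes 82 had an entry, and 4 of them held it: Vgf (chr12:25276971-25277270, minus strand), Sst (chr11:90461296-90461595, plus strand), Scg2 (chr9:88256817-88257116, minus strand) and Gpr6 (chr20:46075202-46075501, minus strand).
Vgf: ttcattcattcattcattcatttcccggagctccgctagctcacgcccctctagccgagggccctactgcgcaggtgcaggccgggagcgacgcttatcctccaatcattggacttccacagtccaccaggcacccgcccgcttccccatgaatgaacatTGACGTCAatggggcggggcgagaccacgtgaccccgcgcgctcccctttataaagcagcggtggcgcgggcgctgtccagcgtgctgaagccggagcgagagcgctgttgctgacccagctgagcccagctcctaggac
Sst: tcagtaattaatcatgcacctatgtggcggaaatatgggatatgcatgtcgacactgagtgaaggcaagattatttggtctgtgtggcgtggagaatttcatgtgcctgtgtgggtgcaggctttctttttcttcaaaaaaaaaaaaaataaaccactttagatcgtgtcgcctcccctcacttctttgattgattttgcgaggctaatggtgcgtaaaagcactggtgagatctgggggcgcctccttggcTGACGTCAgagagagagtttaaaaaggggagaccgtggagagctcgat
Scg2: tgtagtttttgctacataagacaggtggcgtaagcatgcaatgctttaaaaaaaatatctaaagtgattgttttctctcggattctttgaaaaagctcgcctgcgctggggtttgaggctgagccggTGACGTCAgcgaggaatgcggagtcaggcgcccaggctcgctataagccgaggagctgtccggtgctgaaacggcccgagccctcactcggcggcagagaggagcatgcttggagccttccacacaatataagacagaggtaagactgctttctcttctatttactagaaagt
Gpr6: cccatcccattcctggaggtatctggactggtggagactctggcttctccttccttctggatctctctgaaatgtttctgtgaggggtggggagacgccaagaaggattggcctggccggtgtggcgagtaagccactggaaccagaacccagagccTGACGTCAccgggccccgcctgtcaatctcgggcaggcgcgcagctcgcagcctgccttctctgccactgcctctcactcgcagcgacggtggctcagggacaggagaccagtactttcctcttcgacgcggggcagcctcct
The element starts 90 bases before the gene start in Vgf, 123 before in Scg2 and 93 before in Gpr6, while in Sst it starts 2 bases after the annotated start. It reads the same on both strands and did not overlap the other motifs searched. These 4 are 4.88% of the lowered genes with an entry, against 3.32% of the 9585 tested genes with an entry and 1.91% of all 27457 promoters, and 0 of 25 raised genes. Over the lowered genes that share is close to the background. Within the secreted effectors and neuropeptides 4 of 17 held it, the fourth being Cartpt, which did not pass (log2 -0.16, adjusted p = 0.805). A match is a description of these letters and not of a bound site.

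The second large group of lowered transcripts belonged to cholesterol synthesis. Cholesterol is built from acetyl-CoA through mevalonate, isoprenoids and squalene, and its enzymes are switched on together by the transcription factor SREBP2 when membrane sterol runs low. Of 12 mevalonate and squalene enzymes all 12 were lower, with a median of -0.71, and 7 fell. Of 10 enzymes of the later steps 9 were lower, with a median of -0.58, and 3 fell. Both medians stand beside 0.01 over all genes tested, and 58.3% and 30.0% called beside 1.1%.

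Along the pathway, Acat2 (NM_001006995), which joins acetyl-CoA units, had 1741, 1927 and 1622 read equivalents with TTX, against 3349, 3054 and 2966 untreated (log2 -0.83, SE 0.09, adjusted p = 0.0334). Hmgcs1 (NM_017268), the HMG-CoA synthase, had 27228, 28916 and 22088 with TTX, against 47244, 42528 and 38829 untreated, and fell by 0.72 (SE 0.10, adjusted p = 0.0417). In both genes the 3 TTX libraries lay below the 3 untreated ones. Later steps fell as well: Mvk, mevalonate kinase (-0.71, SE 0.11), Mvd, mevalonate diphosphate decarboxylase (-1.02, SE 0.13), and Idi1, the isopentenyl isomerase (-0.71, SE 0.08), with adjusted p of 0.0453, 0.0341 and 0.0335 in that order. Fdps (NM_031840), farnesyl pyrophosphate synthase, had 3825, 3859 and 3302 with TTX, against 7776, 6085 and 6648 untreated, a log2 change of -0.90 (SE 0.10, adjusted p = 0.0334). Its untreated levels were all well above the highest TTX level.

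After squalene, Lss, which closes the sterol rings, fell by 0.72 (SE 0.08, adjusted p = 0.0334). Cyp51 (NM_012941), the lanosterol demethylase, had 6514, 7295 and 6774 with TTX, against 11697, 11285 and 12006 untreated, and fell by 0.77 (SE 0.08, adjusted p = 0.0334). Its replicate levels were among the closest of the group, and the TTX and untreated libraries were clearly apart. Tm7sf2, a sterol reductase (-0.82, SE 0.09), and Nsdhl, a sterol dehydrogenase (-0.77, SE 0.09), also fell, with adjusted p of 0.0335 and 0.0335. Fdft1 (-0.61), Sqle (-0.58), Hsd17b7 (-0.84) and Dhcr7 (-0.50) had adjusted p between 0.0561 and 0.0631 and did not pass. The 2 enzymes that stood nearest 0 were Ggps1 (-0.06), which leads from the pathway to geranylgeranyl groups, and Lbr (0.06), a lamin-binding protein of the nuclear envelope that is also a sterol reductase.

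**Figure D3:**
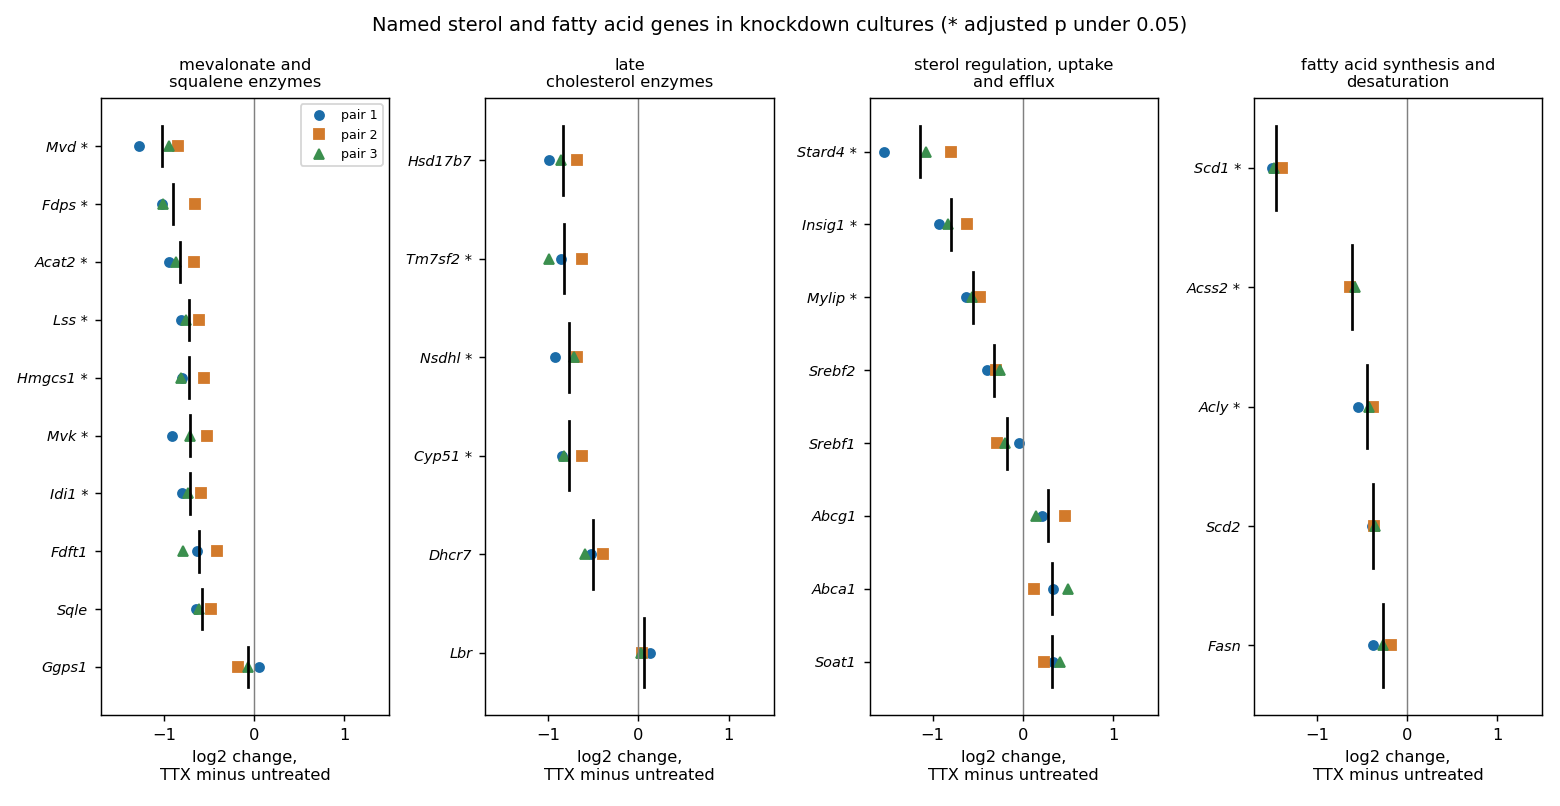
Log2 change with TTX in knockdown cultures for the genes of 4 lipid lists that are named in the text, with 1 symbol per pair, the fitted change as a black bar, and a star for an adjusted p under 0.05. The fitted changes of the cholesterol enzymes shown lie left of 0 apart from that of Lbr, while the genes of sterol regulation, uptake and efflux lie on both sides.

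The regulators and carriers of sterol went both ways. Of 19 tested, 11 were higher and 8 lower (median 0.07), and 4 fell. That is 42.1% lower and 21.1% called, beside 47.3% and 1.1% of all genes tested. Insig1 (NM_022392), the sterol-sensing anchor that holds SREBP in the endoplasmic reticulum and is itself a target of SREBP, had 3760.1, 3593 and 3034 read equivalents with TTX, against 7175, 5527 and 5385 untreated (log2 -0.79, SE 0.10, adjusted p = 0.0352). The highest TTX library was below the lowest untreated library. Stard4, an intracellular sterol carrier, fell by 1.14 (SE 0.16, adjusted p = 0.0452). Mylip fell by 0.55 (SE 0.07, adjusted p = 0.0335), and it encodes a ubiquitin ligase that the sterol-activated receptor LXR induces. Srebf2, which encodes SREBP2, had -0.32 (adjusted p = 0.149) and Srebf1 -0.17 (adjusted p = 0.397). The exporters Abca1 (0.32) and Abcg1 (0.28) and the sterol esterifying enzyme Soat1 (0.33) were on the higher side, with adjusted p of 0.122, 0.192 and 0.185.

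Among 16 genes of fatty acid synthesis and desaturation 12 were lower (median -0.25), and 3 fell, 75.0% lower and 18.8% called beside 47.3% and 1.1% of all genes tested. Scd1 (NM_139192), the desaturase that makes oleate, had 1794, 1704 and 1651 read equivalents with TTX, against 5087, 4456 and 4617 untreated. These were 2 narrow and well separated groups, averaging 1716 ± 72.2 with TTX and 4720.0 ± 328 untreated (SD, n = 3 each). The log2 change of -1.46 (SE 0.17, adjusted p = 0.0335) is one of the 3 calls made from the 6 knockdown libraries alone. Acss2, which makes cytosolic acetyl-CoA from acetate, fell by 0.61 (SE 0.08, adjusted p = 0.0406), and Acly, which makes it from citrate, by 0.45 (SE 0.07, adjusted p = 0.049). Fasn, the fatty acid synthase, had -0.27 (adjusted p = 0.104) and the paralogue Scd2 -0.37 (adjusted p = 0.108). Outside the lists, Aacs (-0.64, adjusted p = 0.0418), which feeds ketone bodies into lipid synthesis, Acsl4 (-0.58, adjusted p = 0.0452), a fatty acyl-CoA ligase, and Sptssb (-2.05, adjusted p = 0.0475), a subunit of the first enzyme of sphingolipid synthesis, fell as well. Aacs and Acsl4 were picked after their values were seen.

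The promoters of 2 mevalonate enzymes are shown because the CCAAT box, bound by NF-Y, a known partner of SREBP, was common in this group. Capitals mark CCAAT, or ATTGG where it lies on the other strand. Fdps is at chr2:176804767-176805066 on the minus strand and Hmgcs1 at chr2:53382054-53382353 on the plus strand of GRCr8.
Fdps: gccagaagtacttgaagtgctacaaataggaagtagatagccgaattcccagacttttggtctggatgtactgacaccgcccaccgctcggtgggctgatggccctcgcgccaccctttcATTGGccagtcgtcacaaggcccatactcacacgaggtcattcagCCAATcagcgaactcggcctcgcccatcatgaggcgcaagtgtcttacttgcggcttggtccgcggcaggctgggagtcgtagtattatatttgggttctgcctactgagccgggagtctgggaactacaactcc
Hmgcs1: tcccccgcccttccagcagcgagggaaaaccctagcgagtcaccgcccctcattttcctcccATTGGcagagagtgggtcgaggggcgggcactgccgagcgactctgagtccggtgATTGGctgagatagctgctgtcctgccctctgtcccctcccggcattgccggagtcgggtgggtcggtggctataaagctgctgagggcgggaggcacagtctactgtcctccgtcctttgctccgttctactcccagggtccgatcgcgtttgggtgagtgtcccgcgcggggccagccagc
Fdps had 2 matches, 130 and 85 bases before the gene start, and Hmgcs1 had 2, at 188 and 133 before. Of the 17 cholesterol enzymes with an entry 14 held a CCAAT box (82.4%), against 37.5% of tested genes, 42.7% of the lowered genes and 48.0% of the raised genes with an entry. The sterol regulatory element, searched as TCACNCCAC on both strands, was in 0 of the 17 and in 1.13% of tested genes. Binding was not measured, and SREBP accepts other letters.

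Genes of receptors, channels and synapses are counted here beside 47.3% lower and 1.1% called over all genes tested. Of 24 glutamate receptor genes 15 were lower (62.5%, median -0.16) and 1 fell (4.17%). Grm2 (NM_001105711), a presynaptic metabotropic receptor that dampens glutamate release, had 120.1, 114 and 54.6 read equivalents with TTX, against 342, 286 and 282 untreated. Pair 3 had the lowest TTX level and thus the largest fall, and the groups did not overlap (log2 -1.72, SE 0.25, adjusted p = 0.0453). The AMPA receptor subunits Gria1 (0.03) and Gria2 (0.02), which carry most fast excitation, were near 0 with adjusted p of 0.9 and 0.934. Of 18 genes of GABA receptors and the inhibitory synapse 16 were lower (88.9%, median -0.22) and 1 fell (5.56%), Gabra5 (NM_017295), the subunit of extrasynaptic GABA-A receptors. It had 2017, 1314 and 889 with TTX, against 4093, 2434 and 1985 untreated, overlapping between pairs but down within each (log2 -1.02, SE 0.10, adjusted p = 0.0334).

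Of 27 voltage-gated potassium channel genes 24 were lower (88.9%, median -0.37) and 3 fell (11.1%). Kcnc2 (NM_139216), a channel of fast-firing cells, had 122, 126 and 96.2 read equivalents with TTX, against 285, 249 and 190.4 untreated, without overlap (log2 -1.06, SE 0.10, adjusted p = 0.0334). Kcna1, an axonal channel, fell by 0.81 (SE 0.12, adjusted p = 0.0452), and Kcnf1, a silent modulatory subunit, by 0.66 (SE 0.10, adjusted p = 0.0453). Kcnv1 (-1.07, adjusted p = 0.0523), another silent subunit, and Kcnq3 (-0.88, adjusted p = 0.0775), a subunit of the M-current, did not pass. Of the potassium channel partners outside the list, Kcnip1 (-0.70, adjusted p = 0.0334) and Kcnip4 (-0.74, adjusted p = 0.0335) fell, and were named after their values were seen. The target of TTX itself, the sodium channel family, had 8 of 10 genes lower (80.0%, median -0.28) and 0 called by limma (5 at an unadjusted p under 0.05), with Scn2a at -0.46 (adjusted p = 0.0775).

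Of 28 presynaptic release genes 27 were lower (96.4%, median -0.33) and 1 fell (3.57%), Sv2c (NM_031593), a synaptic vesicle glycoprotein, which had 52.0, 72.2 and 40.4 with TTX, against 141, 125 and 109 untreated (log2 -1.21, SE 0.15, adjusted p = 0.0341). The 23 postsynaptic scaffolds and kinases had 20 lower (87.0%, median -0.18) and 0 called by limma (8 at an unadjusted p under 0.05), the largest value being that of Camk4 (-0.92, adjusted p = 0.0659), a nuclear calcium-dependent kinase. Among 14 RGS genes, brakes on G-protein signalling, the list was balanced (6 higher, 8 lower, median -0.03) and 1 fell (7.14%). Rgs4 (NM_017214) had 2147, 1289.6 and 1729.6 read equivalents with TTX, against 5714, 2929.6 and 5607 untreated. Pair 2 was the lowest in both groups, and still the untreated level of pair 2 was above all 3 TTX levels. Rgs4 fell by 1.43 (SE 0.15, adjusted p = 0.0334).

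Further genes were among the largest falls. Hs3st5, which sulfates heparan sulfate, had 175, 177 and 91.1 with TTX, against 431, 413 and 314 untreated (log2 -1.43, SE 0.18, adjusted p = 0.0341). Lgi2, a secreted leucine-rich protein, fell by 1.21 (adjusted p = 0.0341), Diras2, a small GTPase, by 1.17 (adjusted p = 0.0474), and Tmem54 by 1.28 (adjusted p = 0.0334). Calcium-binding proteins of neurons were also called, though named after their values were seen: Hpca, hippocalcin (-0.95, adjusted p = 0.0453), Vsnl1, visinin-like 1 (-0.74, adjusted p = 0.0453), and Pcp4, a calmodulin regulator (-1.01, adjusted p = 0.0335). Wif1, a secreted WNT inhibitor, was named in the same way (-1.04, adjusted p = 0.0334).

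Levels of neuron markers moved along with these neuronal groups. The marker counts stand beside 47.3% lower, 52.7% higher and 1.1% called over all genes tested. All 15 pan-neuronal markers were lower (median -0.37) and 1 fell (6.67%). This was Nefm, the medium neurofilament, with 1853, 1107 and 839 read equivalents with TTX, against 3771, 1830.2 and 1554 untreated (log2 -0.88, SE 0.10, adjusted p = 0.0335). Nefh (-1.34, adjusted p = 0.0604) and Nefl (-0.81, adjusted p = 0.0582), the other neurofilaments, did not pass, and Map2 (-0.14) and Elavl4 (-0.13) were nearer 0. Summed over the 15 markers, levels were 87978 to 135078 read equivalents in TTX libraries and 121699.7 to 172193 in untreated libraries. Of 15 GABAergic markers 11 were lower (73.3%, median -0.41), with Sst and Npy called (13.3%). Gad1, the GABA-making enzyme, had -0.88 (adjusted p = 0.0775). Of 12 glutamatergic markers 9 were lower (75.0%, median -0.31) and 1 fell (8.33%). This was Fezf2, a factor of deep-layer projection neurons, which fell by 0.68 (SE 0.09, adjusted p = 0.0443). Astrocyte markers had 14 of 16 higher (87.5%, median 0.13) and 0 called by limma (2 at an unadjusted p under 0.05). Their summed levels were 235879.9 to 409133 with TTX and 218044 to 358602 untreated. Oligodendrocyte markers had 5 of 13 higher (median -0.09), the vascular list 5 of 6 (median 0.06) and the microglia list 2 of 2, with 0 called by limma in each and 2, 0 and 1 at an unadjusted p under 0.05. The part of these markers in the synaptic, channel and peptide results was not tested.

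Immediate early genes, the first wave of activity-driven transcription, showed no common direction. Of 24 tested, 13 were higher (54.2%, beside 52.7% of all genes tested) and 11 lower (median 0.03). By limma 0 were called (5 at an unadjusted p under 0.05), beside 1.1% called over all genes tested. At that share few calls would fall in 24 genes, so nothing is read from the 0. Fos had 164, 172 and 274 read equivalents with TTX, against 141, 83.1 and 171 untreated (log2 0.65, adjusted p = 0.0907), and Jun was also on the higher side (0.52, adjusted p = 0.0811). The orphan nuclear receptors Nr4a2 (-0.78, adjusted p = 0.0724) and Nr4a3 (-0.72, adjusted p = 0.105) and the factor Npas4 (-0.42, adjusted p = 0.474) were on the lower side. Arc (NM_019361), a synaptic immediate early gene, had 119, 94.0 and 198 with TTX, against 240.3, 98.7 and 221 untreated. Most of its difference came from pair 1, where the untreated level was highest, and its log2 change of -0.41 (SE 0.32) did not pass (adjusted p = 0.556).

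Among raised genes the change in Hrk was one of the largest. Hrk (NM_057130) encodes harakiri, a BH3 protein that promotes neuronal apoptosis. It had 2796, 2144 and 2369 read equivalents with TTX, against 1337, 1103 and 1262 untreated, with every TTX library above every untreated one, and rose 1.97-fold (log2 0.98, SE 0.07, adjusted p = 0.026). Of 14 genes of the Bcl2 family 10 were higher (71.4%, median 0.14), beside 52.7% of all genes tested. Hrk was the 1 called (7.14%, beside 0.288% of all genes called higher). The next was Pmaip1 (0.57, adjusted p = 0.289), while Bax (-0.01) and Bcl2 (-0.01) were near 0. Slc44a5 (NM_001134594), a choline transporter-like protein, had 208, 202 and 229.5 with TTX, against 58.2, 102 and 79.9 untreated. This was the largest rise of the called genes (log2 1.43, SE 0.21, adjusted p = 0.0453), and the groups were well apart.

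Jag1 (NM_019147), a Notch ligand, had 369, 348 and 314 read equivalents with TTX, against 231, 219 and 206 untreated, without overlap (log2 0.65, SE 0.07, adjusted p = 0.0334). All 17 Notch pathway genes tested were higher (median 0.18), beside 52.7% of all genes tested (median 0.01). Of the 17, 11 were higher in all 3 pairs and 2 had an unadjusted limma p under 0.05. Jag1 was the 1 called (5.88%, beside 0.288% of all genes called higher). Its fellow ligand Dll4 had 0.76 (adjusted p = 0.0706), while the Notch targets Hes1 (0.12) and Hes5 (0.08) were nearer 0. Txnip (NM_001008767), a glucose-responsive inhibitor of thioredoxin, had 2266, 2472 and 1439.8 with TTX, against 1116, 1642 and 775 untreated. The untreated library of pair 2 was above the TTX library of pair 3, so the groups overlapped, while each pair rose (log2 0.83, SE 0.12, adjusted p = 0.0452). Gpnmb (NM_133298), a lysosomal glycoprotein, had 1854, 387 and 975 with TTX, against 1035, 162 and 540.3 untreated, with pair 1 several times higher than pair 2 in both groups. The log2 changes within pairs 1, 2 and 3 were 0.84, 1.25 and 0.85 (fitted 0.98, SE 0.10, adjusted p = 0.0334), and the call was lost with pairs as a random block (adjusted p = 0.193).

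Cryab, a small heat-shock protein abundant in glia, rose by 0.72 (SE 0.09, adjusted p = 0.0364). It was the 1 called of 16 chaperone genes tested (6.25%, beside 0.288% of all genes called higher). The list was otherwise balanced (8 higher, 8 lower, median 0.01). Elk1, an ETS factor activated by ERK, rose by 0.69 (adjusted p = 0.0468), and Prnp, the prion protein, by 0.56 (adjusted p = 0.0418). Lancl3 (0.81, adjusted p = 0.0341), Reep4 (0.79, adjusted p = 0.0453), which clears endoplasmic reticulum from mitotic chromosomes, and Plcxd2 (0.57, adjusted p = 0.0472) complete the largest rises outside the mitotic genes described next.

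All 22 cell cycle and progenitor genes tested were higher (median 0.42, against 0.01 over all genes, of which 52.7% were higher). Of the 22 genes 3 rose (13.6%, beside 0.288% of all genes called higher): Prc1, a cytokinesis protein, Kif20a, a mitotic kinesin, and Bub1b, a spindle checkpoint kinase. Prc1 (NM_001107529) had 1925, 1754 and 2379 read equivalents with TTX, against 1343, 1243 and 1746 untreated (log2 0.49, SE 0.07, adjusted p = 0.0453). The lowest TTX library was just above the highest untreated library, and the call was lost with pairs as a random block (adjusted p = 0.0701). Kif20a rose by 0.47 (SE 0.07, adjusted p = 0.0472) and Bub1b by 0.45 (SE 0.07, adjusted p = 0.0472). The proliferation marker Mki67 had 0.49 (adjusted p = 0.105), Top2a 0.41 (adjusted p = 0.0648) and the progenitor factors Sox2 0.18 (adjusted p = 0.368) and Pax6 0.22 (adjusted p = 0.287).

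Further mitotic genes were among the raised ones by the rule of largest rises: Kif23, a kinesin of the central spindle (0.58), Iqgap3 (0.60), Ckap2 (0.59), a spindle protein, and Gtse1 (0.55), with adjusted p between 0.0453 and 0.0477. Rrm2 (0.43) and Tk1 (0.47), which make deoxynucleotides, and Tpx2 (0.49) and Aspm (0.47), spindle proteins, were called at an adjusted p of 0.0452 each and named after their values were seen. Summed over the 22 genes of the list, levels were 35560.5 to 48439 in TTX libraries and 25969.5 to 38766 in untreated libraries, highest in pair 3 in both groups. Pair 3 also had the highest astrocyte sums and the lowest pan-neuronal sums.

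Chromatin genes were examined because the knockdown cultures had less RNA of Ehmt1, which encodes an H3K9 methyltransferase. The chromatin counts stand beside 52.7% higher, 47.3% lower and 1.1% called over all genes tested (median 0.01). Of 14 genes of H3K9 methylation 10 were higher and 4 lower, with a median of 0.05 and 0 called by limma (0 also at an unadjusted p under 0.05), and values between -0.10 and 0.11. Of 10 histone deacetylase genes 6 were higher (median 0.05) and 1 fell. Hdac9 (NM_001200045), a class IIa deacetylase that shuttles with neuronal activity, had 529.9, 426 and 391 read equivalents with TTX, against 1212, 821 and 751 untreated, without overlap (log2 -1.03, SE 0.10, adjusted p = 0.0334). Hdac4 (0.13) and Hdac5 (-0.13), the better known class IIa members in neurons, had adjusted p of 0.515 and 0.479.

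**Figure D4:**
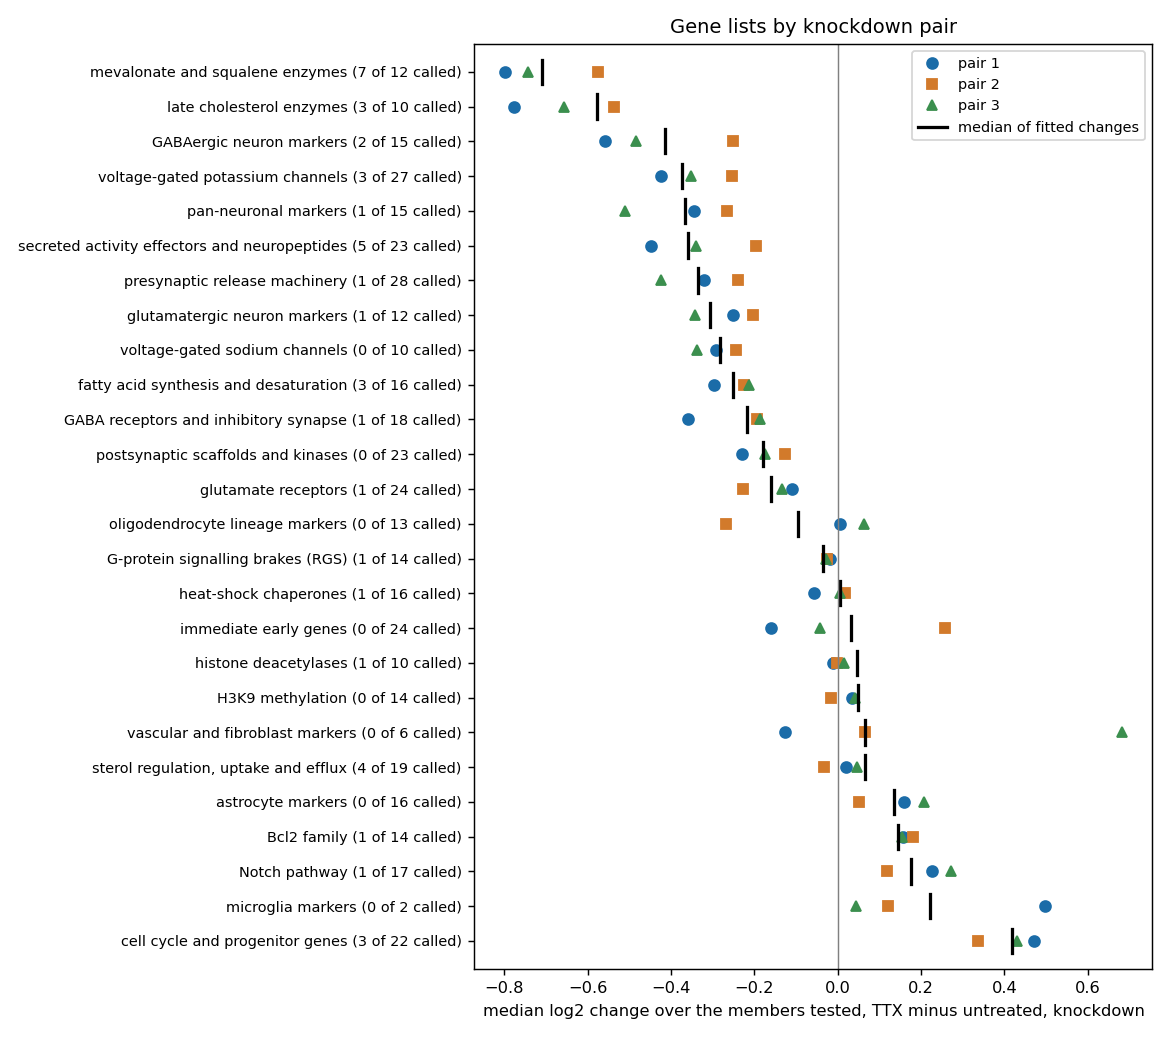
Median log2 change with TTX in knockdown cultures over the tested members of each gene list, with 1 symbol per pair and a black bar for the median of the fitted changes, beside the number of members called. The black bars of the cholesterol lists lie furthest left and that of the cell cycle list furthest right, and pair 2 (squares) lies nearer 0 than the other pairs in both cholesterol lists and in the cell cycle list.

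The TTX response of the knockdown was set against that of wild-type cultures by a test of the difference itself. For this difference limma called 0 of 11813 genes (0%), with 444 at an unadjusted p under 0.05 where the threshold alone gives 591. Under each of the 16 alternatives in which these calls were counted, 0 were called. Of the 130 genes called in knockdown 129 had the same sign in wild-type, 96 of 96 lowered and 33 of 34 raised. The share of equal signs over all genes tested was not counted, so these counts are descriptions. Also called in wild-type were 106, which is 81.5% of the knockdown calls and 22.9% of the 463 wild-type calls (3.92% of genes tested). Both sets of calls use 1 estimate of the spread per gene, which favours the same genes in both. The lowered genes had medians of -0.76 in knockdown and -0.77 in wild-type, and the raised genes 0.58 in knockdown and 0.41 in wild-type, but they were chosen on the knockdown values.

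Single members differed in size without passing. Vgf changed by -1.92 in knockdown and -2.69 in wild-type (difference 0.77, SE 0.42, adjusted p = 0.974), and Grm2 by -1.72 and -1.08 in the same order (difference -0.65, SE 0.35, adjusted p = 0.974). Bdnf had -0.43 in knockdown and -1.07 in wild-type (difference 0.64, SE 0.30, adjusted p = 0.974). Scd1 had -1.46 in knockdown and -1.15 in wild-type, and Hrk 0.98 and 0.96. The list of secreted effectors had a median of -0.36 in knockdown and -0.67 in wild-type, mevalonate enzymes -0.71 and -0.57, and cell cycle genes 0.42 and 0.26, with no test of these medians.

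The genes with the smallest p for the difference were, on the side of a higher change in knockdown, Adcyap1 (-0.69 in knockdown, -1.39 in wild-type), Rps29 (0.42 and -0.21), a ribosomal protein gene whose reads may be split with its pseudogene copies, and LOC100912083 (0.03 and -0.62). On the other side were Polm (0.12 in knockdown, 0.80 in wild-type), a DNA repair polymerase, Prelp (0.15 and 0.62), a matrix protein, and Gjb2 (-0.27 and 0.36), connexin 26. All 6 had an adjusted p of 0.974 for the difference.

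**Figure D5:**
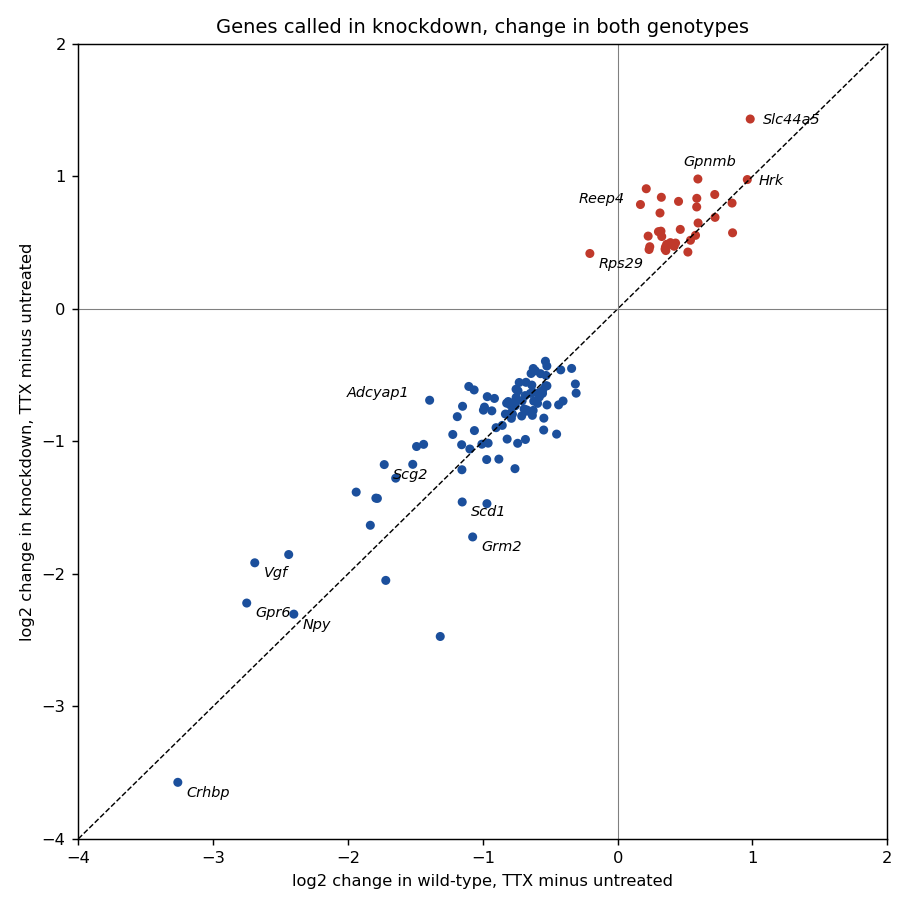
Log2 change with TTX in knockdown cultures (vertical axis) against that in wild-type cultures (horizontal axis) for the 130 genes called in knockdown, lowered in blue and raised in red, with equality as the dashed line. All but Rps29 lie in the quadrants of equal sign.

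The authors' deposited table gives its own z score and p for the same comparison. Of the genes tested here, 502 had p under 0.05 in the authors' deposited table (4.25%), 351 with a negative and 151 with a positive z. Of the 130 genes called here 98 were among them, 75.4% of these calls and 19.5% of the 502. Every 1 of the 130 had a z of the same sign as its log2 change. The z was computed on the same 6 libraries, so equal signs are not independent support. The lowest p in the authors' deposited table was that of Scd1 (z -12.03), followed by Cyp51 and Gpr6. At the edge of the call used here, Brinp3 and LOC100912071 were just inside (adjusted p = 0.0499 each), and Cenpn (0.0502) just outside.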

How the data were processed

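Total RNA depleted of ribosomal RNA was made into strand-specific libraries, 4 to a lane, per the labels' protocols. GSNAP, DESeq, DESeq2 and the rn6 build appear in the submitters' processing notes without versions, and whether counting used strand is not stated there. The deposited signal is base coverage per RefSeq transcript divided by a size factor, read from the values: in each library 100% of values were whole multiples of 1 step within 0.01 step, and low values lay at multiples of 42 steps. The values were divided by 42. The deposited score is the authors' z and the deposited p-value is the authors', not stated to be adjusted. Depth was 17807192 to 24787516 read equivalents in knockdown and 15108848 to 23569628 in wild-type libraries, summed over all entries.

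For each symbol the entry of highest mean was used. Values plus 1 were log2-transformed and limma 3.58.1 (R 4.3.3) was run on 12 libraries. Genotype and replicate number together were a term, which left 4 residual degrees of freedom, and the trend option was off. P-values were two-sided and adjusted by Benjamini-Hochberg over 11813 genes, with a threshold of 0.05. The filter dropped 5526 symbols. Knockdown and wild-type values came from tables that the authors scaled separately. Same-numbered libraries correlated at 0.82, 0.71 and 0.79 in knockdown and 0.46, 0.59 and 0.85 in wild-type, so the numbers were taken to pair them, which the labels do not state. P-values measure the spread between these libraries, which may be technical.

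Named genes were Ehmt1, Ehmt2, Bdnf, Arc and Vgf, the 15 largest called rises and falls of one direction in 3 pairs with a mean of at least 50 read equivalents, called members of 26 lists (459 genes), the 3 lowest p per direction for the difference, and the 2 genes on each side of the threshold. Members of a list that did not pass are examples, and some genes that the rule names are not reported here, although the counts and medians of their lists include them. The members and lists were chosen with earlier results of these data known. Alternatives covered the pairing, spread, pseudocount, filter, scaling, table, entry and each pair left out.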

Additional observations from a re-analysis of the deposited data

Results flagged for a closer look

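Among the named genes, 2 had each knockdown pair one way with TTX and each wild-type pair the other way, and both had been named for a low p of that difference. Of all genes tested 176 had this pattern (1.49%). Gjb2, connexin 26, had log2 changes of -0.31, -0.34 and -0.17 in knockdown pairs 1, 2 and 3 and of 0.56, 0.45 and 0.08 in wild-type pairs. The difference, knockdown minus wild-type, was -0.64 (SE 0.15) and did not pass the limma test (adjusted p = 0.974). Rps29, a ribosomal protein gene, had log2 changes of 0.40, 0.37 and 0.48 in knockdown pairs and of -0.28, -0.14 and -0.19 in wild-type pairs, a difference of 0.62 (SE 0.09, adjusted p = 0.974). Groups of 3 were too small to look for single outlying libraries.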

How the results depend on the processing

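The number of genes called for TTX in knockdown varied with the processing, and the cause was not tested. It was 130 as reported, 0 with no replicate block (445 at an unadjusted p under 0.05), 373 with pairs as a random block, 3 from the 6 knockdown libraries alone with the replicate block (3000 unadjusted), 11 with no filter (6 higher, 5 lower), 393 with a filter at 50, 83 on the values as deposited and 619 with a mean-variance trend. Leaving out 1 knockdown pair gave 0 to 1 and leaving out 1 wild-type pair 1 to 264 (264, 77 and 1 without pair 1, 2 and 3). The number was within 1.5 times of 130 with a pseudocount of 0.5 (120) or 5 (190), median centring (142), the 12-library table (139) and the entry listed first (130). The split of 34 higher and 96 lower was 129 and 264 with the filter at 50. Of the 130 genes, 108 were also called with the random block, 114 with the filter at 50, 119 with the trend, 83 on the values as deposited, 64 without wild-type pair 2 and 8 with no filter. Counts for the difference from wild-type were 0 under each alternative in which they were taken. Of 1189 values of single genes under an alternative, 700 kept their side of the threshold, 476 lost the call, and 13 gained it. No called value changed sign, which the 1 direction of the called genes in all 3 pairs largely fixes. A sign change was seen in 1 value that was not called, that of LOC100912083 without knockdown pair 2. Of 351 list medians, 18 moved by more than the spread between pairs. With 3 pairs, few degrees of freedom limit what can be called.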
